A study of Mus musculus with 8 samples.

Results

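The genes described here are 39 interferon-stimulated genes of the mouse, followed in CD103+ CD11b+ conventional dendritic cells (cDC) that do or do not express human BCL2. They were chosen by name. Each gene was read from the probe set whose platform annotation names that gene alone, and where there were several such sets, from the one with the highest mean over all 8 arrays. By this rule 35 of the 39 genes had a value, out of 22180 genes on the array. For Oas1a, Dtx3l and Ifi27l2a the annotation lists the gene beside another on 1 probe set, and no probe set lists Ifi44, so these 4 were not analysed here.

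The cells were sorted from mesenteric lymph nodes of male C57BL6 mice aged 8 weeks and fed control chow. The 4 transgenic arrays came from mice with the hBcl-2 transgene, driven by the promoter of CD11c, an integrin of dendritic cells that some macrophages and plasmacytoid dendritic cells also carry. The 4 wild-type arrays came from control littermates. Pools of 2 to 3 samples were put on each array, so a replicate is a pool (n = 4 per group throughout), and how animals were divided among pools is not stated in the labels. Values are deposited log2 levels after robust multi-array averaging (RMA). The distributions were close but not equal, and transgenic array 4 had the highest median (5.15) and the smallest SD over probe sets (2.00). On the other arrays the median was 5.04 to 5.10 and the SD 2.07 to 2.11. Differences are transgenic minus wild type on that log2 scale. They were tested with limma over all 22180 genes, and a gene is said to have risen or fallen only at a Benjamini-Hochberg adjusted p below 0.05.

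Type I interferons bind the receptor IFNAR, whose kinases JAK1 and TYK2 phosphorylate STAT factors, STAT2 among them. With IRF9 these form a complex, ISGF3, that binds interferon-stimulated response elements in the promoters of its target genes. The proteins so induced sense foreign nucleic acids, block viral replication and release, or feed back on the pathway. In the intestine and its lymph nodes a low tonic interferon signal keeps many of these genes expressed in dendritic cells without infection.

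The promoters of Isg15 and Bst2, which passed the test, and a stretch of that of Ifih1, the next gene by p, are shown. These genes were picked by limma's p, and the Ifih1 stretch was cut around its match to the motif described below. ISGF3 is known to act through the response element, and a match to this motif does not show that it binds there. A promoter window, from 250 bases before the annotated start to 50 bases after it (RefSeq, build GRCm38.p6), was found for 29 of the 39 genes. Parp9, which also passed the test, was among those without a window, so its promoter was not searched. The motif searched, on both strands, was GAAA followed by any 2 bases and again GAAA, a core of the response element. It was present in the windows of 14 of these 29 genes (48.3%), against 3.99% of 27025 mouse genes with such a window, and overlapping matches were counted separately. Capitals mark the matches in the sequences below, which are written 5′ to 3′ on the gene's own strand. The Isg15 promoter is the 250 bases before the start at chr4:156200819-156201068 (minus strand), the Bst2 promoter the 250 bases at chr8:71537473-71537722 (minus strand), and the Ifih1 stretch is the 26 bases at chr2:62646206-62646231 (minus strand), just after the start.
Isg15: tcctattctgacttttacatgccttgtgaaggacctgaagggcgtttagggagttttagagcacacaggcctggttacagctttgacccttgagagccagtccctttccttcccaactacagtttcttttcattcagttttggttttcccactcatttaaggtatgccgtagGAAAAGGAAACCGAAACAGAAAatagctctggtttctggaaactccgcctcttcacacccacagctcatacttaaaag
Bst2: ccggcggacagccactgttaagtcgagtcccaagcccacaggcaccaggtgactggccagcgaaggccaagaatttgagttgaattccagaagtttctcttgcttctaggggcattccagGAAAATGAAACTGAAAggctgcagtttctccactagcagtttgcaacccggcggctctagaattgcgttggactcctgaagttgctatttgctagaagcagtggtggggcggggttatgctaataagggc
Ifih1: agagaatcGAAACAGAAAccgatctg

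Isg15 holds 3 overlapping matches, which span positions -78 to -57 from the start, and Bst2 holds 2, from -130 to -115. The first of these genes fell and the second rose, as described below. The Ifih1 match lies at 33 to 42 after the start. Over the 13 measured genes with the motif the median difference was -0.15, and over the 13 measured genes with a window and no match it was -0.33, with 9 and 11 of them negative.

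The 35 genes leaned towards lower levels in transgenic cDC, with few of them past the test. Isg15 and Parp9 fell, Bst2 rose and 32 did not pass. Those 3 of 35 are 8.57%, and over all genes 1.69% passed (0.839% higher and 0.848% lower). The median difference of the 35 was -0.33, against -0.00 over all genes, and 27 of them (77.1%) were negative, against 50.3% of all genes. Only 2 of the 35 were below the median gene in level, and a baseline of genes matched for level was not computed. At an unadjusted p below 0.05 in limma there were 17 lower and 2 higher genes, 54.3% of the 35 against 13.2% of all genes (6.60% lower and 6.56% higher). The transgenic and wild-type arrays did not overlap for 11 lower and 2 higher genes, 37.1% of the 35 against 8.94% of all genes (4.94% lower and 4.00% higher). The list was chosen with earlier results on these arrays known, so these counts describe it and are no independent evidence of a direction. In sorted pools, less RNA of a gene per cell and fewer cells that express it cannot be told apart.

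**Figure D1:**
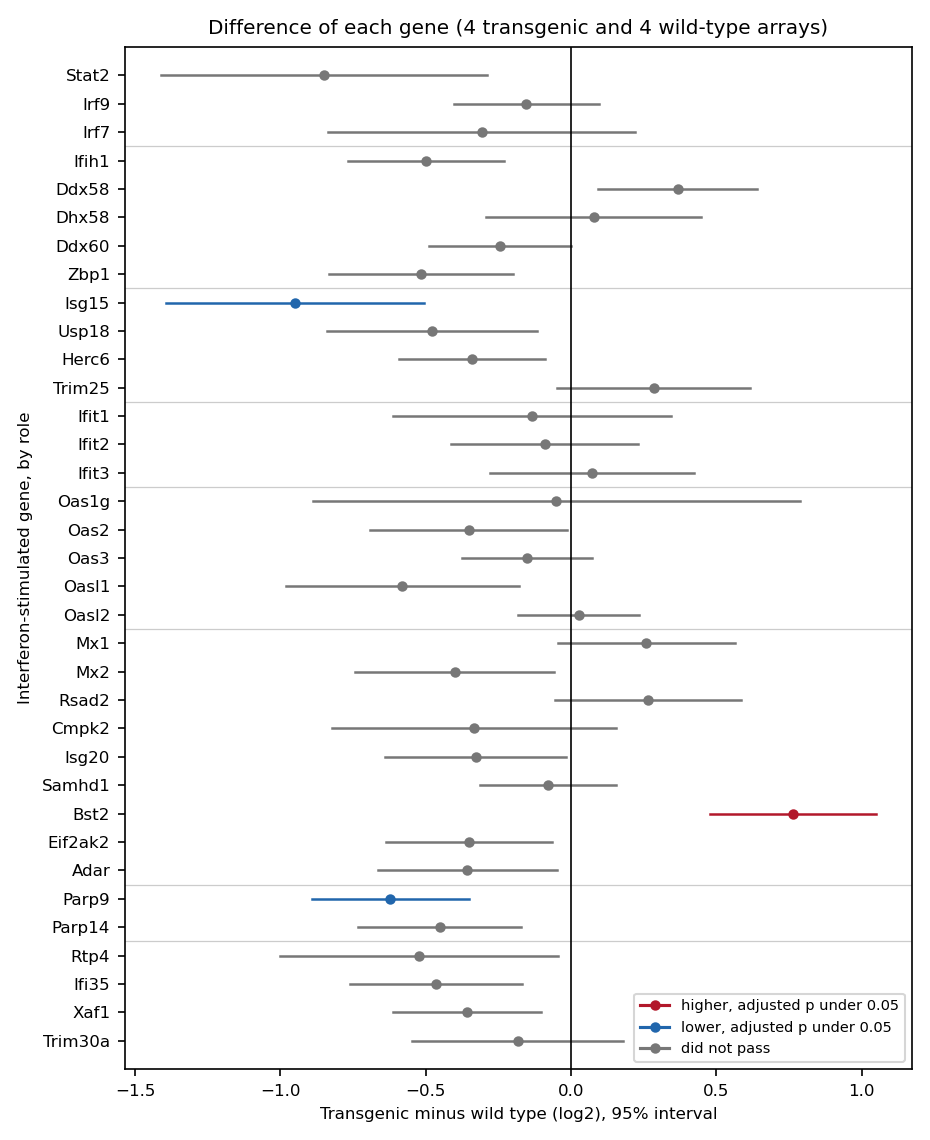
Difference between transgenic and wild-type arrays (x axis, log2) for each of the 35 measured genes (y axis, in blocks by role), with the 95% interval from limma. Bst2 at 0.76 is the only gene past the test on the positive side, Isg15 (-0.95) and Parp9 (-0.62) are those on the negative side, and 27 of the 35 points lie below 0.

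The calls depended on single arrays. Leaving out 1 array at a time, limma called 0 of the 35 without transgenic array 2 or without wild-type arrays 1, 2 or 3. Without wild-type array 4 it called Bst2 alone, without transgenic array 3 Usp18 alone, without transgenic array 4 Bst2 and Parp9, and without transgenic array 1 the same 3 genes as with all arrays. Without moderation of the variances it called 0 of the 35. The number of calls over all genes moved too, between 106 and 379 against 374 with all arrays. The median of the 35 stayed between -0.35 and -0.24. Transgenic array 4 stood apart from its group, with a mean correlation of 0.974 with the other 3 against 0.980 to 0.983 for the other transgenic arrays and 0.986 to 0.988 for the wild-type arrays, and the median without it was -0.25.

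Isg15 encodes a ubiquitin-like protein that is attached to other proteins during the interferon response. Its log2 level was 8.85, 8.23, 8.17 and 8.00 on transgenic arrays 1 to 4, against 9.66, 8.99, 9.18 and 9.21 on wild-type arrays 1 to 4. The groups did not overlap, although transgenic array 1 came close to wild-type array 2. Isg15 averaged 8.31 ± 0.37 on transgenic and 9.26 ± 0.28 on wild-type arrays (SD, n = 4; difference -0.95, SE 0.20, limma adjusted p = 0.0465), so its transgenic level was 51.8% of the wild-type level. It no longer passed limma's test when any array but transgenic array 1 was left out, with an adjusted p of 0.0802 to 0.124, nor with array weights (0.0638) or with each array centred on its median (0.0579).

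The other genes of ISG15 conjugation did not pass and were not alike. Usp18, the protease that removes ISG15 from proteins and also restrains signalling at IFNAR, had 9.88, 9.54, 10.37 and 9.79 on transgenic arrays, against 10.28, 10.40, 10.44 and 10.38 on wild-type arrays. Transgenic array 3 lay among the wild-type arrays and the other 3 lay below them all, for a difference of -0.48 (SE 0.16; limma adjusted p = 0.205). Without that array the difference was -0.64 and passed (limma adjusted p = 0.0488). Herc6, the main ligase for ISG15 in mice, was at 9.33 to 9.65 on transgenic and 9.72 to 9.94 on wild-type arrays, without overlap (difference -0.34, SE 0.11; limma adjusted p = 0.192). Trim25, a ubiquitin ligase that acts on the RNA sensor RIG-I, was at 10.41 ± 0.26 on transgenic and 10.12 ± 0.17 on wild-type arrays (SD, n = 4), and its groups overlapped.

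Parp9 encodes an ADP-ribosyltransferase that works with the ubiquitin ligase DTX3L in antiviral responses. Its level was 8.82, 8.61, 8.56 and 8.31 on transgenic arrays 1 to 4, against 9.21, 9.19, 9.16 and 9.23 on wild-type arrays. The wild-type arrays were close together (SD 0.03) and every transgenic array lay below them (SD 0.21). The difference was -0.62 (SE 0.12; limma adjusted p = 0.0351), with a transgenic level at 65.0% of wild type. Its adjusted p in limma was 0.0734 and 0.0755 without transgenic arrays 2 and 3, 0.0905 to 0.104 without any 1 of the wild-type arrays, and 0.0547 with each array centred on its median. The annotated spans of Parp9 and Dtx3l overlap in RefSeq, and whether these probes also see Dtx3l was not tested. Parp14, a related enzyme of macrophages and dendritic cells, had 9.10, 8.63, 9.06 and 8.86 on transgenic arrays, against 9.32, 9.42, 9.45 and 9.26 on wild-type arrays. All 4 transgenic arrays lay lower, but the difference of -0.45 (SE 0.13) did not pass (limma adjusted p = 0.119).

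Bst2 encodes tetherin, a membrane protein that holds budding virus on the cell surface and that also marks plasmacytoid dendritic cells. Its level was 10.11, 10.46, 10.47 and 10.22 on transgenic arrays 1 to 4, against 9.44, 9.46, 9.52 and 9.78 on wild-type arrays. Every transgenic array lay above every wild-type array. The means were 10.31 ± 0.18 on transgenic and 9.55 ± 0.16 on wild-type arrays (SD, n = 4), a rise of 0.76 (SE 0.13; limma adjusted p = 0.0204), or 1.70 times the wild-type level. In limma the adjusted p was 0.0555 and 0.0505 without transgenic arrays 2 and 3, and 0.0702, 0.0719 and 0.0705 without wild-type arrays 1, 2 and 3.

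Markers of plasmacytoid dendritic cells and of monocytes and macrophages varied between these arrays. The mean level of 9 of the 10 listed plasmacytoid markers, which do not include Bst2, was 6.81, 7.39, 6.04 and 6.14 on transgenic arrays 1 to 4, against 5.93 to 6.60 on wild-type arrays. This marker level lay above the wild-type range on transgenic arrays 1 and 2 and within it on transgenic arrays 3 and 4. Bst2 did not share that order. It was at 10.46 on transgenic array 2 and 10.47 on array 3, where the marker level was highest and lowest. Siglech, a defining plasmacytoid marker, had 6.29, 7.52, 5.67 and 5.86 on transgenic arrays, against 5.18 to 6.07 on wild-type arrays, and its difference of 0.68 did not pass (limma adjusted p = 0.477). Of the 9 markers 7 were positive and 2 negative, and 0 passed. The negative ones were Tcf4 (-0.21, SE 0.18) and Spib, which was lower on all 4 transgenic arrays without overlap (-0.64, SE 0.16; limma adjusted p = 0.0791) and had the lowest p of the list. The mean of 10 monocyte and macrophage markers was 5.49 to 6.32 on transgenic and 5.17 to 5.39 on wild-type arrays, without overlap. Of these markers Adgre1 (difference 1.29, SE 0.19) and Csf1r (1.16, SE 0.19) rose and 8 did not pass in limma. The list had 7 positive and 3 negative members and a median difference of 0.32. At an unadjusted p below 0.05 in limma 4 of the 10 were higher and 0 lower, against 6.56% and 6.60% of all genes. C1qa was lower on all 4 transgenic arrays (-0.17, SE 0.10), and Fn1 was at -0.13 (SE 0.12). Ly6c2, a monocyte gene that interferon also induces, was at 8.28, 10.38, 5.81 and 7.11 on transgenic arrays, against 5.46 to 6.83 on wild-type arrays. Its difference of 1.81 (SE 0.77) did not pass. The part of these cells in the level of any interferon-stimulated gene was not tested.

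**Figure D2:**
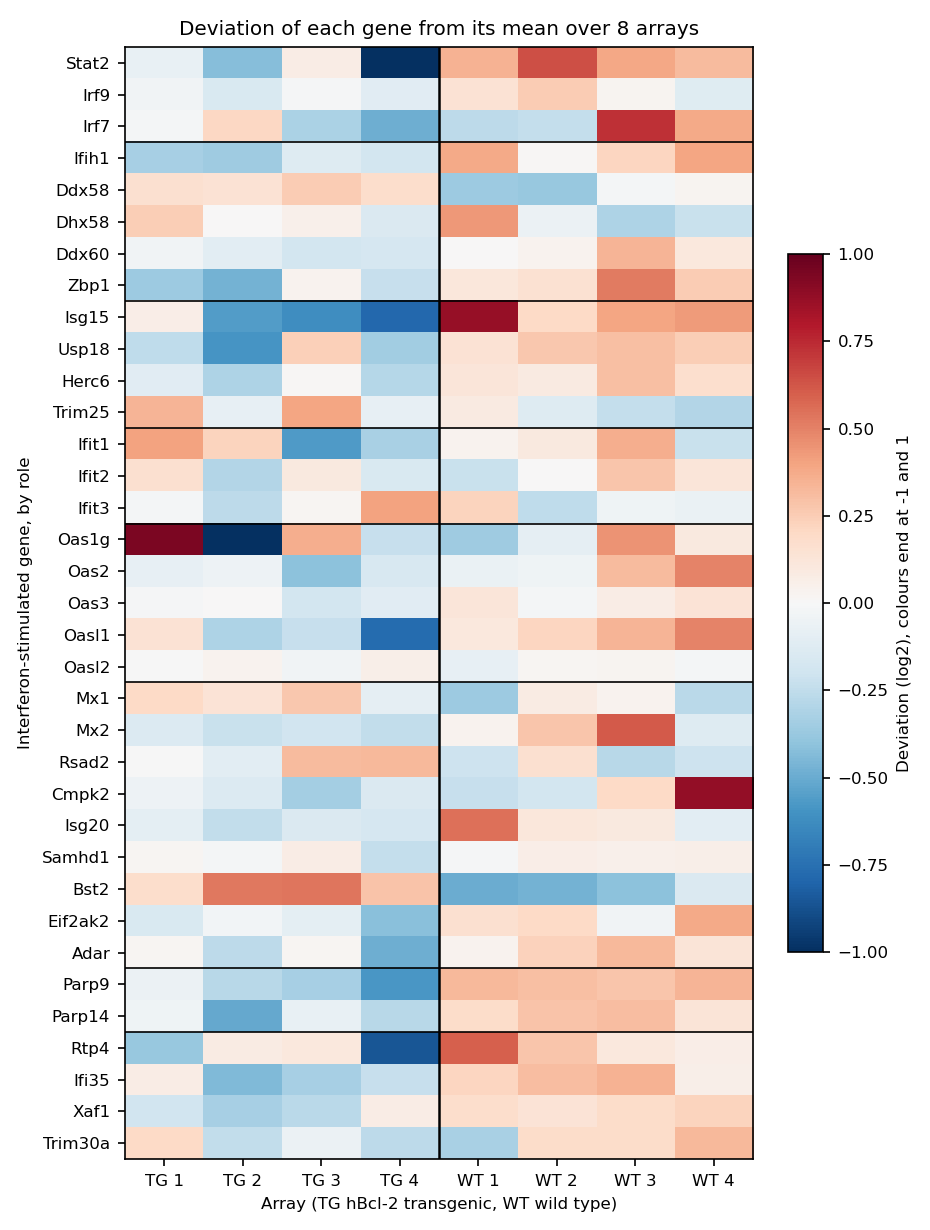
Deviation of each measured gene (rows, in blocks by role) from its own mean over the 8 arrays (columns, transgenic left of wild type), in log2, with colours that end at -1 and 1. Bst2 is high on all 4 transgenic arrays, whereas most rows lie below their mean on each transgenic array and above it on each wild-type array. Of the 35 rows, 21, 26, 19 and 29 lie below their mean on transgenic arrays 1 to 4, against 12, 10, 7 and 11 on wild-type arrays.

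The genes of the complex ISGF3 and its amplifier were lower on average without passing. Stat2, a subunit of ISGF3, had 8.41, 8.06, 8.55 and 7.21 on transgenic arrays 1 to 4, against 8.83, 9.12, 8.87 and 8.80 on wild-type arrays. All 4 transgenic arrays lay below the wild-type arrays, and array 4 was the lowest by far. The difference was -0.85 (SE 0.25; limma adjusted p = 0.141), and -0.57 without transgenic array 4 (adjusted p = 0.0936 to 0.309 in limma over the fits that leave out 1 array). Irf9, which gives ISGF3 its DNA binding, was at 7.83 ± 0.06 on transgenic and 7.98 ± 0.16 on wild-type arrays (SD, n = 4; difference -0.15, SE 0.11). Irf7, which amplifies interferon production, had 6.90, 7.13, 6.60 and 6.43 on transgenic arrays, against 6.66, 6.68, 7.65 and 7.29 on wild-type arrays. Its wild-type arrays split, with arrays 3 and 4 above every transgenic array and arrays 1 and 2 inside the transgenic range (difference -0.31, SE 0.24).

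None of the 5 sensors of foreign nucleic acid passed, and they did not share a direction. Ifih1, which encodes the RNA sensor MDA5, came closest of the 32 that did not pass, with 8.93, 8.91, 9.14 and 9.09 on transgenic arrays against 9.65, 9.28, 9.48 and 9.66 on wild-type arrays. Its groups did not overlap (difference -0.50, SE 0.12; limma adjusted p = 0.0755), and it passed when genes averaging below 6 were left out of the limma fit (adjusted p = 0.0470). Zbp1, a sensor of Z-form nucleic acids that can start necroptosis, had 8.47, 8.36, 8.88 and 8.61 on transgenic arrays, against 8.95, 8.99, 9.36 and 9.09 on wild-type arrays (difference -0.52, SE 0.14; limma adjusted p = 0.115). Again the groups were apart.
Ddx58, which encodes RIG-I, went the other way, with 6.96, 6.95, 7.06 and 6.98 on transgenic arrays against 6.44, 6.43, 6.78 and 6.83 on wild-type arrays. Its difference was 0.37 (SE 0.12; limma adjusted p = 0.204), and every transgenic array lay above the wild-type arrays. Ddx60, a helicase linked to antiviral sensing, was at 6.32 to 6.46 on transgenic and 6.51 to 6.84 on wild-type arrays, and Dhx58, which encodes the regulator LGP2, overlapped between groups (difference 0.08, SE 0.17).

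The classical effectors IFIT and OAS did not pass in any case. Ifit1, Ifit2 and Ifit3, whose products bind foreign RNA and block its translation, differed by -0.13 (SE 0.22), -0.09 (SE 0.15) and 0.07 (SE 0.16), and their groups overlapped. The 95% interval of Ifit1 ran from -0.61 to 0.35 and that of Isg15 from -1.39 to -0.51. These intervals overlap, and a difference between the genes was not tested. Among the oligoadenylate synthetase genes, whose products activate RNase L or inhibit viruses in other ways, Oasl1, which in mice also limits the translation of Irf7, had the largest difference (-0.58, SE 0.18; limma adjusted p = 0.162). Its level was 6.93, 6.47, 6.54 and 6.01 on transgenic arrays, against 6.89, 7.00, 7.12 and 7.27 on wild-type arrays, and only transgenic array 1 overlapped. Oas2 (-0.35, SE 0.15), Oas3 (-0.15, SE 0.10) and Oasl2 (0.03, SE 0.09) lay closer to 0. Oas1g spread most, with 6.16, 4.04, 5.57 and 4.98 on transgenic arrays against 4.86 to 5.66 on wild-type arrays. Its sequence is close to that of Oas1a, so which of the pair the probes see is uncertain.

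Of the remaining 8 antiviral effectors 6 were negative and 2 positive. Mx2 and Adar were lower on all 4 transgenic arrays without overlap, and both positive genes, Mx1 and Rsad2, overlapped. Mx1, a GTPase that traps viral nucleoproteins and whose allele in C57BL6 mice is known to be defective, was at 9.98 to 10.34 on transgenic and 9.71 to 10.15 on wild-type arrays (difference 0.26, SE 0.14), and its neighbour Mx2 at 6.54 to 6.64 on transgenic and 6.65 to 7.39 on wild-type arrays (difference -0.40, SE 0.15). For Mx2, transgenic array 1 and wild-type array 4 were almost level. Rsad2, which encodes viperin, an enzyme that makes a chain-terminating nucleotide, was at 0.26 (SE 0.14), and its genomic neighbour Cmpk2, a nucleotide kinase, at -0.33 (SE 0.22). Wild-type array 4 held the highest Cmpk2 level, 6.67, against 5.56 to 5.99 on the other wild-type arrays. Eif2ak2, the RNA-activated kinase PKR, was at -0.35 (SE 0.13), Adar, which edits self RNA, at -0.36 (SE 0.14), the exonuclease gene Isg20 at -0.33 (SE 0.14) and Samhd1, which depletes nucleotides, at -0.08 (SE 0.11). None of these 8 passed limma's test, and the lowest adjusted p among them was 0.247.

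Of the other induced genes, 0 of 4 passed, and all were negative. Ifi35 encodes a partner of the protein NMI. It had 9.16, 8.64, 8.75 and 8.86 on transgenic arrays, against 9.30, 9.39, 9.43 and 9.14 on wild-type arrays (difference -0.47, SE 0.13; limma adjusted p = 0.126), with transgenic array 1 just above wild-type array 4. A second probe set of Ifi35 was at -0.30 (SE 0.13). Xaf1, a partner of the inhibitor of apoptosis XIAP, was at 8.16 to 8.57 on transgenic and 8.63 to 8.72 on wild-type arrays, without overlap (difference -0.36, SE 0.11; limma adjusted p = 0.175). Rtp4 was at -0.52 (SE 0.22), with the lowest level, 5.13, on transgenic array 4, and Trim30a, which restrains signalling by Toll-like receptors, at -0.18 (SE 0.16).

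Within a group the genes followed particular arrays. Of the 35, 28 had their lowest transgenic level on array 2 or 4, 80.0% against 52.8% of all genes, and 24 had their highest wild-type level on array 3 or 4, 68.6% against 50.1%. These arrays were picked from the same counts, so the shares describe them and test nothing. The median deviation of the 35 from their own means was -0.02, -0.22, -0.04 and -0.23 on transgenic arrays 1 to 4, against 0.11, 0.09, 0.22 and 0.12 on wild-type arrays. Over all genes that deviation was between -0.02 and 0.03 on every array. Transgenic arrays 1 and 3 thus lay nearer to the wild-type arrays than transgenic arrays 2 and 4 did. A larger SD among the transgenic arrays was seen for 21 of the 35, a share (60.0%) close to that of all genes (62.1%).

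The steps before and beside these targets were read in 7 further lists with 132 measured genes of 148, of which 9 (6.82%) passed, 8 lower and 1 higher, against 1.69% of all genes (0.848% lower and 0.839% higher). With arrays centred on their median Tyk2 (limma adjusted p = 0.0520), Ptpn6 (0.0709) and Sting1 (0.0662) did not pass, and after a further quantile normalization Nmi (0.0604) and Ptpn6 (0.0575) did not. None of the 19 measured interferon genes passed, Ifnb1 and 12 Ifna genes among them, and their median difference was -0.07. Ifnb1, singled out after its values were seen, was at 3.66, 3.55, 3.71 and 4.33 on transgenic arrays, against 3.46 to 3.77 on wild-type arrays, near the dim end of the scale, and 12 of the 19 were below the median gene. The differences of the ligand genes ran from -0.33 (SE 0.16) for Ifnl3 and -0.26 (SE 0.12) for Ifna11 to 0.38 (SE 0.17) for Ifna6 and 0.66 (SE 0.25) for Ifnk.

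Among 10 measured genes of the receptors, the JAK kinases and the STAT factors, Tyk2, the kinase tied to IFNAR, fell and 9 did not pass. Its level was 10.22, 9.60, 10.08 and 9.79 on transgenic arrays, against 10.66, 10.60, 10.66 and 10.60 on wild-type arrays, without overlap and with a narrow wild-type range. The difference was -0.71 (SE 0.14; limma adjusted p = 0.0380), and it passed only without transgenic array 1 when arrays were left out in turn (adjusted p = 0.0582 to 0.111 without the others). The other receptor subunit genes and kinases lay closer to 0, with Ifnar2 at 0.28 (SE 0.15), Ifngr1 at 0.34 (SE 0.24) and Jak2 at -0.24 (SE 0.11).

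Of 5 measured further interferon regulatory factors, Irf1, which interferons induce and which drives targets of its own, fell. It had 9.32, 8.96, 9.44 and 8.99 on transgenic arrays, against 9.85, 9.79, 9.96 and 9.84 on wild-type arrays (difference -0.68, SE 0.13; limma adjusted p = 0.0330), and the groups were apart. Irf8 was at -0.49 (SE 0.15), with no overlap, Irf2 at 0.21 (SE 0.11) and Irf3 at 0.08 (SE 0.16), and none of these passed. Irf1 kept its call when transgenic array 3 was left out and lost it without any of the other arrays (limma adjusted p = 0.0529 to 0.1004).

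Among 13 negative regulators, Irf2bp2, a corepressor that works with IRF2, rose and Ptpn6, which encodes the phosphatase SHP-1, fell. Irf2bp2 was at 9.65 to 10.05 on transgenic and 9.01 to 9.36 on wild-type arrays (difference 0.69, SE 0.13; limma adjusted p = 0.0307). It passed without transgenic array 4 and not without any other array (0.0571 to 0.0950), and the mean over its probe sets gave 0.50 (0.0822). Ptpn6 was at 9.50 to 9.87 on transgenic and 10.17 to 10.38 on wild-type arrays (-0.55, SE 0.12; limma adjusted p = 0.0480), and it lost its call without any 1 array (0.0608 to 0.126). Pias3, an inhibitor of STAT3, had the lowest value of all these lists at -1.23 (SE 0.27) and did not pass (limma adjusted p = 0.0549). It passed in 7 of 18 alternative fits, among them those without transgenic array 1 (-1.41; limma adjusted p = 0.0437) or 4 (-0.93; 0.0307) and with trended and robust moderation (0.0451). Socs1, an inhibitor of JAK kinases, was at 0.34 (SE 0.10) without overlap. Of 13 adaptors and kinases of the sensors, Sting1, the adaptor for cytosolic DNA, fell, with 9.23, 9.22, 8.54 and 8.32 on transgenic arrays against 9.99, 9.80, 9.54 and 10.08 on wild-type arrays (-1.02, SE 0.22; limma adjusted p = 0.0492). It passed without transgenic array 1 and not without any other array (0.0513 to 0.144). Tbk1, the kinase that acts after it, was at -0.43 (SE 0.15) without passing, as were the DNA sensor gene Cgas at 0.21 (SE 0.13) and the RNA sensor gene Tlr7 at 0.43 (SE 0.28).

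Of 48 further measured type I interferon targets, Gca, Znfx1 and Nmi fell and 0 rose. Gca, which encodes the calcium-binding protein grancalcin, had 10.03, 10.08, 10.26 and 10.01 on transgenic arrays, against 10.96, 10.93, 10.97 and 10.97 on wild-type arrays. Its wild-type arrays were nearly level and far above the transgenic ones (difference -0.86, SE 0.10; limma adjusted p = 0.00449), and it passed in all 18 other fits. Znfx1, a helicase that senses viral RNA, was at -0.71 (SE 0.12; limma adjusted p = 0.0191) and Nmi, the partner of IFI35, at -0.57 (SE 0.11; limma adjusted p = 0.0323). Znfx1 lost its call without any 1 wild-type array (0.0541 to 0.0639), and Nmi without any array but transgenic array 4 (0.0558 to 0.0975). Trim34a (0.64, SE 0.18) and Aim2, a sensor of cytosolic DNA (0.47, SE 0.12), were positive without overlap and did not pass. The list's median was -0.17.

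Among 27 targets of type II interferon, which has a receptor of its own, Cd274 and Irf1 fell, 25 did not pass and the median was -0.37, with 24 negative (50.3% of all genes were). Cd274 (PD-L1, which inhibits T cells) was at 9.87 to 10.14 on transgenic and 10.64 to 10.90 on wild-type arrays (-0.75, SE 0.12; limma adjusted p = 0.0152), and lost its call without wild-type array 2 (0.0582) or 3 (0.0578). The groups did not overlap for 11 lower genes and 1 higher gene of this list, against 4.94% and 4.00% of all genes. Socs1 was the higher one, and Gbp6, at 0.30 (SE 0.17), overlapped. Over the 7 lists together the number past the test was between 1 and 8 when 1 array was left out.

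**Figure D3:**
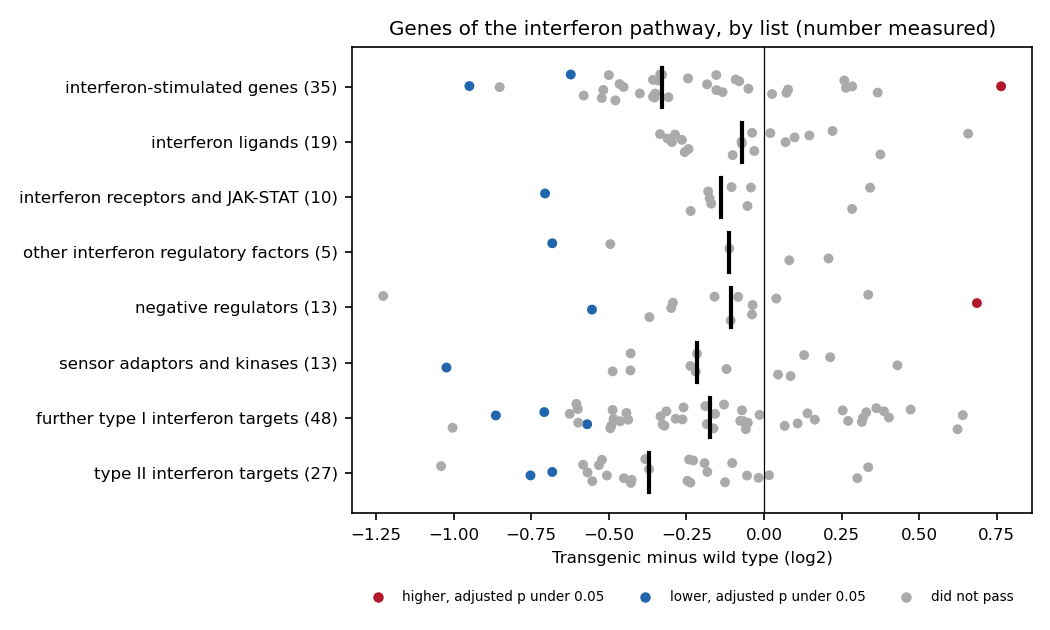
Difference between transgenic and wild-type arrays (x axis, log2) for every measured gene (points, spread vertically at random) of the interferon-stimulated genes and of 7 further lists, with the median of a list as a bar. The medians lie between -0.37 and -0.07, and 1 gene on the positive side passed in the 35 interferon-stimulated genes and 1 among the negative regulators.

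**Figure D4:**
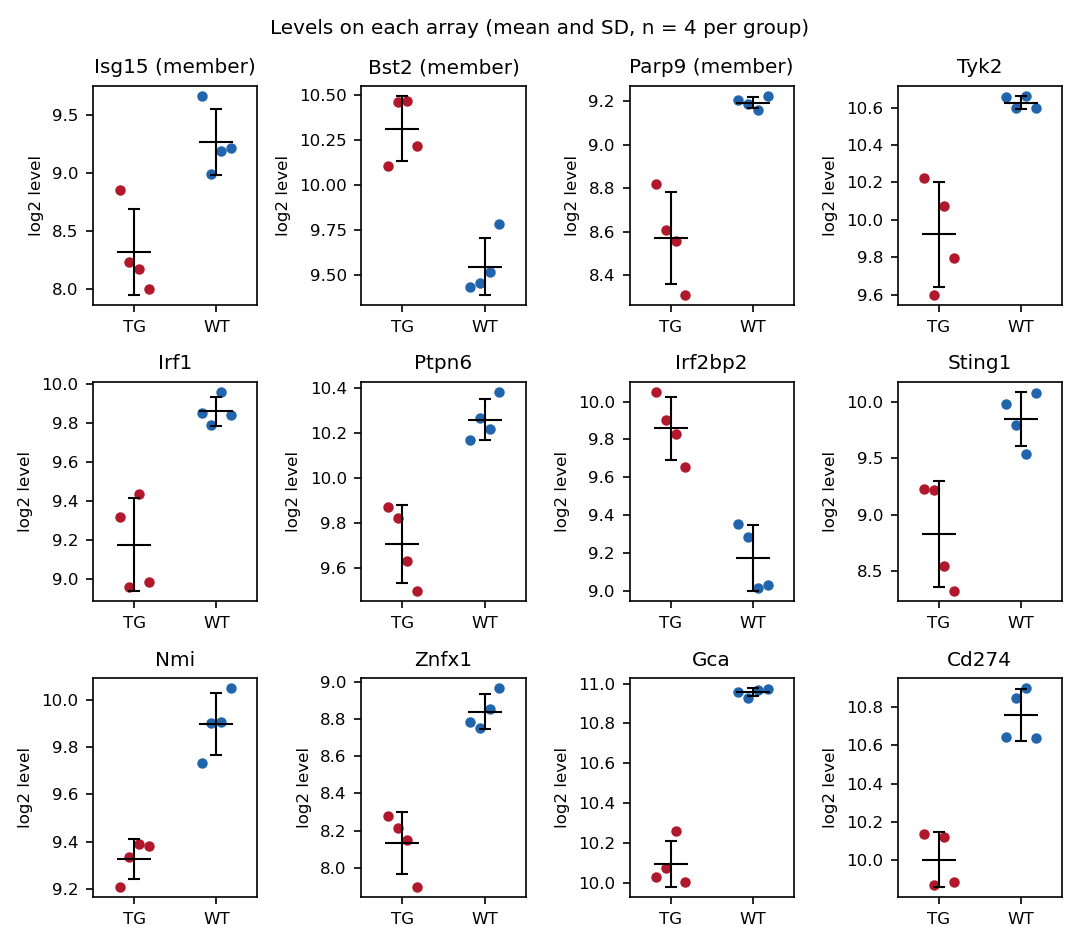
Log2 level on each array (points) with mean and SD (bars, n = 4) in transgenic (TG, left) and wild-type (WT, right) pools for the 3 interferon-stimulated genes and the 9 further pathway genes past the test, each with its own axis. In all 12 panels the groups do not overlap, with Bst2 and Irf2bp2 higher and the other 10 lower in transgenic pools.

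Markers of the sorted cells and of other cells of the node were read on the same arrays. The mean of 10 markers of CD11b+ cDC was 9.21 to 9.53 on transgenic and 9.33 to 9.47 on wild-type arrays, and 0 passed. Its members went both ways. At an unadjusted p below 0.05 in limma 3 of the 10 were lower and 1 was higher, against 6.60% and 6.56% of all genes. Flt3 (-0.37, SE 0.16), Zbtb46 (-0.42, SE 0.16) and H2-Ab1 (-0.25, SE 0.11; named after its values were seen) were the lower ones, Flt3 and H2-Ab1 without overlap, and Cd24a (0.70, SE 0.24) was the higher one. Among the genes of the sorting markers, Itgax (CD11c) was at 8.80 to 9.42 on transgenic and 8.92 to 9.12 on wild-type arrays, whereas Itgae (CD103) and Itgam (CD11b) were close to the median gene (5.32), at 5.17 to 5.86 and 5.38 to 5.72 on transgenic and 5.44 to 5.90 and 5.38 to 5.76 on wild-type arrays. The mean of the NK cell markers was 5.43 to 6.96 on transgenic and 4.95 to 6.70 on wild-type arrays, and that of the cDC1 markers 6.55 to 7.84 on transgenic and 7.02 to 7.48 on wild-type arrays. The means of the T cell, B cell and neutrophil markers overlapped between the groups as well. Of these 5 lists the single gene past the test was Cd4, which rose by 1.18 (SE 0.13; limma adjusted p = 0.00437) and which some dendritic cells also express. On transgenic array 2 the NK, T cell, plasmacytoid, monocyte and cDC1 means were the highest of the transgenic arrays. Without that array Bst2, Isg15 and Parp9 differed by 0.71, -0.92 and -0.63, against 0.76, -0.95 and -0.62 with all arrays. They did not pass limma's test then, nor did they without wild-type array 1, 2 or 3. Whether other cells had a part in these differences was not tested.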

How the data were processed

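RNA from the sorted cells was measured on 8 mouse arrays, 4 per group. The deposited values are on a log2 scale, which the authors computed by RMA using Partek according to the labels' list of tools, per the submitters' processing notes. No version is given there. The annotation gives 1 gene for 23521 of the 34390 probe sets, more than 1 for 1814, and for 9055 no gene. For each of 22180 genes the probe set with the highest mean was kept, with no filter on dim genes. Groups came from the sample labels. The comparison was fitted with limma 3.58.1 in R 4.3.3 (lmFit, eBayes, 2 groups, no covariates) over all genes, with Benjamini-Hochberg adjustment and a threshold of 0.05. The procedure was tested on simulated data. Alternatives were other moderation, array weights, a replicate block, quantile normalization or centring of the arrays, filters, probe set rules and leaving out each array. All interferon-stimulated genes and each pathway or marker gene past the test were to be named, with the 2 highest and the 2 lowest genes of each list by limma's statistic. Those of the cDC1, T cell, B cell, NK cell and neutrophil lists, none past the test but Cd4, and Sirpa and Pacsin1 are left out of the text. The genes and lists were chosen with earlier results of these data known. The number of arrays limits the precision. Each p-value sets a difference between groups against the spread between these pools, moderated over all genes.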

Additional observations from a re-analysis of the deposited data

Results flagged for a closer look

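In 6 of 186 groups of 4 arrays looked at, 1 array lay far from the other 3, and chance alone gives such a gap in about 1 of 20 groups. Of the interferon-stimulated genes this was so for Samhd1 on wild-type array 1 (12.15, against 12.21 to 12.22 on the other wild-type arrays), a gap that is small in size. Among the ligands it was so for Ifnk on transgenic array 1 (4.14, against 5.15 to 5.30 on the other transgenic arrays). The other 4 were marker genes. Klrb1c was at 5.89 on transgenic array 2 (4.65 to 4.81 on the others of its group) and at 5.64 on wild-type array 4 (4.63 to 4.79). Csf1r was at 6.76 on wild-type array 4 (6.04 to 6.13), and Ms4a1 at 6.16 on wild-type array 1 (5.56 to 5.62).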

How the results depend on the processing

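The median difference of the 35 genes stayed between -0.35 and -0.24 in every alternative run. The 2 lower calls became 0 without moderation and with arrays centred on their median, 1 with array weights and 1 with a replicate block, and 0 to 2 when 1 array was left out. They became 3, with Ifih1 added, after leaving out genes averaging below 6 and at an adjusted p below 0.1. The 1 higher call became 0 without moderation and 0 with the replicate block, and 0 to 1 when 1 array was left out. The 9 pathway calls became 1 without moderation, 4 with the replicate block, 14 with array weights, 14 after leaving out genes below the median gene or those averaging below 6, 16 at an adjusted p below 0.1, and 1 to 8 when 1 array was left out. The deviations of same-numbered arrays from their group means correlated between -0.03 and 0.08, and those of other pairs of arrays between -0.10 and 0.13. The numbers thus gave no sign of pairing, but so few arrays cannot show that the samples were unpaired. With 1 array out fewer samples enter the fit; for the other changes the cause was not tested. Of the 19 interferon ligand genes 12 were below the median gene, where little can be said of small differences.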
